A study of Homo sapiens with 6 samples.

Results

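The 10 genes described here encode ligands and receptors that direct the growth and branching of blood and lymphatic vessels. They are the growth factors VEGFA, VEGFB, VEGFC and PGF, their receptor kinases FLT1 and KDR, the neuropilin co-receptors NRP1 and NRP2, and the angiopoietins ANGPT1 and ANGPT2. They were chosen by name, as probe sets whose platform gene symbol is one of these 10. Each of the 10 genes had 1 probe set with a single symbol, among 70523 features and 22411 genes with their own probe set. On 3 arrays the RNA came from U87 MG cells that stably overexpress GUCY1B3, which codes for the beta subunit of the nitric oxide receptor soluble guanylate cyclase and had been cloned into the plasmid pCDNA3.1D/V5-His-TOPO. They were compared with 3 arrays of U87 MG cells labelled as control. U87 MG is an established human glioblastoma cell line, both groups were untreated, and they were grown in DMEM with serum. No vector-only line is named in the labels, and they do not say whether the stable cells were 1 clone or several, or whether arrays came from separate cultures. Effects of the cyclase therefore cannot be told apart from those of transfection and selection, and each p-value covers the spread among the arrays alone, which may be technical.

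Vascular endothelial growth factors bind receptor tyrosine kinases on endothelial cells. VEGFA acts mainly through KDR, FLT1 also binds VEGFB and PGF, and VEGFC acts mainly through FLT4 and, once processed, KDR. Neuropilins have no kinase activity. They bind both VEGF ligands and class 3 semaphorins, and hand them to VEGF receptors or plexins. Angiopoietins are ligands of the receptor TEK, with ANGPT1 as its agonist and ANGPT2 often acting against it. Glioblastomas are known for abundant vessels, and their tumour cells for making VEGFA. The values are relative RNA levels from RMA, which corrects the background of each array, brings the arrays to one distribution and summarises the probes of a probe set on a log2 scale. No protein, secretion or vessel growth was measured.

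The label of the stable cells was checked first through the transfected gene. GUCY1B3, listed under its current symbol GUCY1B1, read 8.10, 8.18 and 8.40 in overexpression, against 7.45, 7.70 and 7.49 in control. It was 1.60-fold higher (limma, a linear model with variances moderated across genes, adjusted p = 0.00431), and the ordinary equal-variance test gave an adjusted p of 0.0785. Glial and glioma markers lay above the array median on all 6 arrays for 11 of 12 genes, while AQP4, an astrocyte water channel, lay below it on all 6. Of 12 endothelial markers 9 lay above the array median on all 6 arrays and 3 (PECAM1, EMCN and ERG) below it on all 6. Of all 22411 genes, 15257 lay above the array median on all 6 arrays, so these counts do not show which cell types were present. The mean log2 value of the endothelial list ranged between 5.26 and 5.37 on overexpression arrays and between 5.23 and 5.38 on control arrays. Control array 3 stood apart: its root mean square distance to the other arrays of its group was 0.20, against 0.14 and 0.15 for control arrays 1 and 2 and between 0.09 and 0.10 for overexpression arrays. Results are therefore given with and without it. The array was singled out from these same values, and leaving it out keeps only control arrays 1 and 2. Removing the most distant array tends to shrink the control spread. The p-values without it are therefore likely too small and the intervals too narrow. They show how far a result depends on that array and are not separate evidence of a difference.

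Of the 10 genes 1, the co-receptor NRP2, passed the test, and it fell. The other 6 genes bright enough to be tested (VEGFA, VEGFB, VEGFC, PGF, KDR and NRP1) did not pass with all arrays. VEGFA, VEGFC and KDR passed only when control array 3 was left out, where p-values are likely too small. FLT1, ANGPT1 and ANGPT2 were dim. The test took genes that lay above the array's median feature on at least 3 of the 6 arrays, and all 7 tested members did so on all 6. Over the whole table limma called 10.9% of 15823 genes at an adjusted p under 0.05, 6.38% higher and 4.53% lower. Among the 7 tested members 0 were higher and 1 was lower. By the unadjusted p at 0.05, 1 was higher and 2 were lower, beside 2298 higher and 1659 lower of all 15823 genes. An ordinary equal-variance test called 0 members, beside 246 genes higher and 170 lower over the table. At 1 of 7, the members' share by limma cannot be set apart from the 10.9% of all genes. Without control array 3 limma called 22.9% of the table, 13% higher and 9.97% lower, and of the 7 members 1 was higher and 3 were lower.

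**Figure D1:**
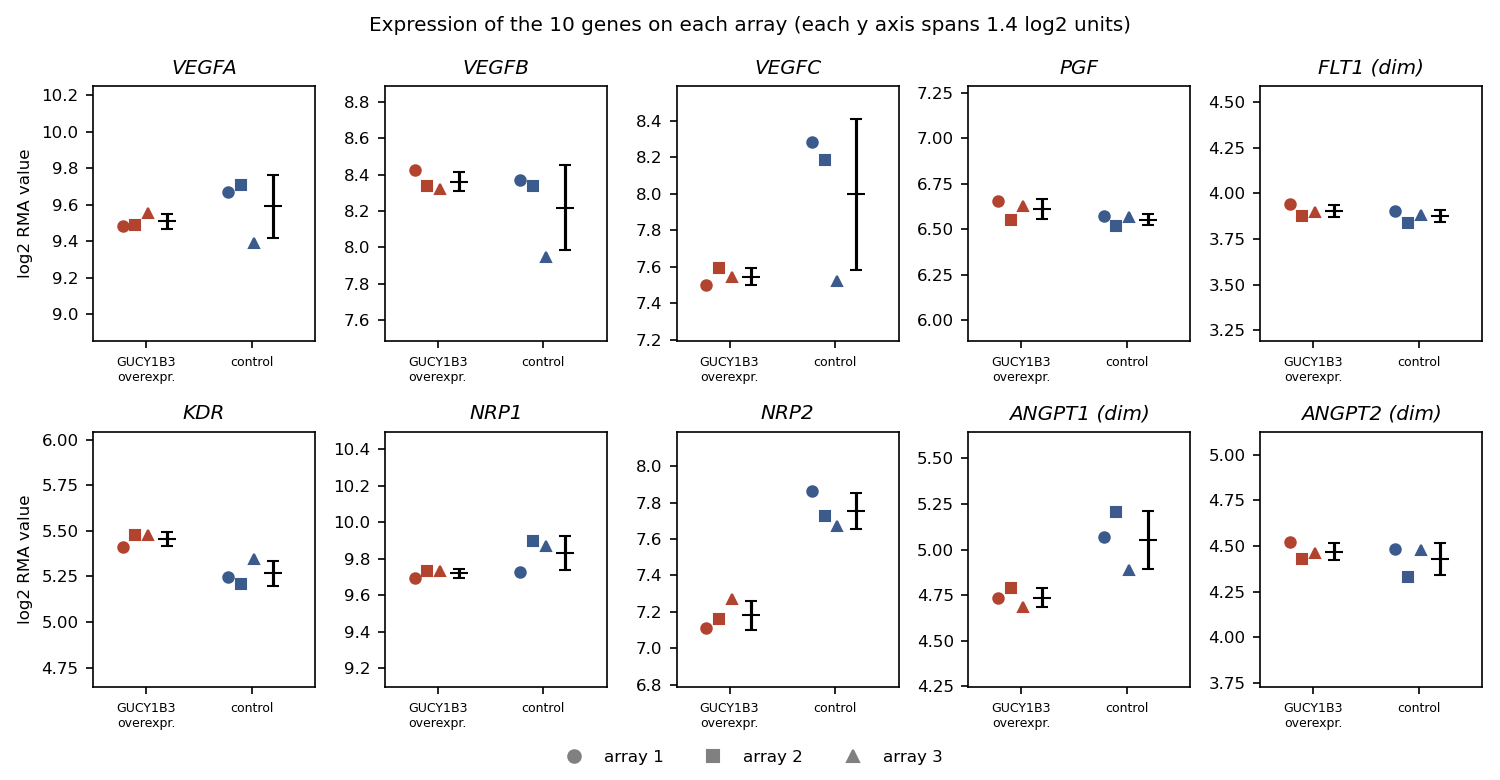
Log2 RMA value (y axis, 1.4 log2 units in each panel, with different origins) of the 10 genes on the 3 GUCY1B3 overexpression arrays (left, red) and the 3 control arrays (right, blue), with the mean and SD as black bars. NRP2 lies between 7.11 and 7.27 on overexpression arrays and between 7.67 and 7.87 on control arrays, and control array 3 (triangle) lies below the other controls for VEGFA, VEGFB and VEGFC. Genes marked as dim did not pass the filter on low values.

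Among the ligands, VEGFA, the main vessel growth factor, read 9.48, 9.49 and 9.56 in overexpression, against 9.67, 9.71 and 9.39 in control. All 3 overexpression arrays lay below control arrays 1 and 2 and above control array 3. The means were 9.51 ± 0.04 in overexpression and 9.59 ± 0.17 in control (SD, n = 3 each), a difference of -0.08 (limma, adjusted p = 0.635, 95% interval between -0.28 and 0.11). With control array 3 left out the difference was -0.18, 1.14-fold lower (limma, adjusted p = 0.0419). A difference of 0.32 would have passed the threshold at the error of this gene with all arrays.

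VEGFC, the ligand best known for lymphatic vessel growth, differed more between control arrays than between groups. It read 7.50, 7.59 and 7.55 on overexpression arrays, against 8.28, 8.19 and 7.52 on control arrays. The 3 overexpression arrays lay close together (SD 0.05, against 0.42 in control), and control array 3 lay among them. The difference was -0.45 with all arrays (limma, adjusted p = 0.145, 95% interval between -0.85 and -0.05) and -0.69 without control array 3, 1.61-fold lower (limma, adjusted p = 0.000105, interval between -0.82 and -0.55). Against control array 3 alone the overexpression mean differed by 0.02. The residual spread of VEGFC was larger than that of 99.1% of tested genes. Only a difference of 0.64 would have passed with all 6 arrays.

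VEGFB, a ligand of FLT1, read 8.42, 8.34 and 8.32 in overexpression and 8.37, 8.34 and 7.95 in control. The overexpression arrays overlapped control arrays 1 and 2 and lay above control array 3. Its difference was 0.14 with all arrays (limma, adjusted p = 0.481) and 0.01 without control array 3 (limma, adjusted p = 0.939, interval between -0.12 and 0.14). PGF, placental growth factor, was the ligand with the least spread between arrays. It read 6.65, 6.55 and 6.63 in overexpression, against 6.57, 6.52 and 6.57 in control. The groups overlapped, and the difference was 0.06 (limma, adjusted p = 0.588, interval between -0.06 and 0.18). With that spread a difference of 0.20 would have passed. Control array 3 differed from the mean of the other controls by -0.30 for VEGFA, by -0.40 for VEGFB and by -0.71 for VEGFC, but by 0.02 for PGF. Over all tested genes the root mean square of that difference was 0.20. Its median, in which higher and lower genes offset each other, was 0.00207. The part of that array in these results was measured only by leaving it out.

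Of the receptor kinases, KDR, the main signalling receptor for VEGFA, was above control on every overexpression array. It read 5.41, 5.48 and 5.48 in overexpression and 5.24, 5.21 and 5.34 in control. The groups did not overlap, with a gap of 0.07 between them. The difference was 0.19 (1.14-fold; limma, adjusted p = 0.0747, interval between 0.06 and 0.32). It was 0.23 without control array 3 and passed (limma, adjusted p = 0.0160). The level of KDR was close to the array medians, which lay between 4.97 and 5.03. FLT1, which binds VEGFA, VEGFB and PGF, was below the array median on all 6 arrays. It read 3.94, 3.88 and 3.90 in overexpression, against 3.90, 3.84 and 3.88 in control. Fitted without the filter on dim probe sets, where 7.14% of genes were called, it differed by 0.03 (limma, adjusted p = 0.822, interval between -0.08 and 0.14).

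NRP2, the co-receptor for VEGFC and for several class 3 semaphorins, was the member with the clearest difference. It read 7.11, 7.16 and 7.27 in overexpression, against 7.87, 7.72 and 7.67 in control. Every overexpression array lay below every control array, with a gap of 0.40 between the groups. The means were 7.18 ± 0.08 in overexpression and 7.75 ± 0.10 in control (SD, n = 3 each). NRP2 was thus 1.49-fold lower (difference -0.57, limma, adjusted p = 0.00252, interval between -0.73 and -0.41). It passed in each of the 6 fits that left out 1 array, with differences between -0.62 and -0.52. The ordinary equal-variance test gave an adjusted p of 0.0519. NRP1, the paralog that binds VEGFA and SEMA3A, read 9.69, 9.73 and 9.73 in overexpression, against 9.73, 9.90 and 9.87 in control. The groups overlapped narrowly, and the difference was -0.11 (limma, adjusted p = 0.315, interval between -0.25 and 0.03). A difference of 0.23 would have passed for NRP1.

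Of the 7 tested members, NRP2 and KDR had groups that did not overlap, 1 lower and 1 higher, beside 29.2% of all tested genes, 17.1% higher and 12.2% lower.

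The angiopoietins were dim, so their calls come from the fit without the filter. ANGPT1, the TEK agonist, read 4.74, 4.79 and 4.69 in overexpression and 5.07, 5.21 and 4.89 in control. All overexpression arrays lay below all control arrays, with a gap of 0.10. Its values exceeded the array median on 0 of 3 overexpression arrays and on 2 of 3 control arrays. The difference was -0.32 (limma, adjusted p = 0.0576, interval between -0.50 and -0.13), and -0.40 without control array 3 (limma, adjusted p = 0.00491, where 14.8% of genes were called). ANGPT2, which can block ANGPT1 at TEK, read 4.52, 4.43 and 4.46 in overexpression, against 4.48, 4.33 and 4.48 in control. The groups overlapped and the difference was 0.04 (limma, adjusted p = 0.812, interval between -0.10 and 0.18). In bulk RNA, fewer cells with a transcript and less of it per cell cannot be told apart.

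**Figure D2:**
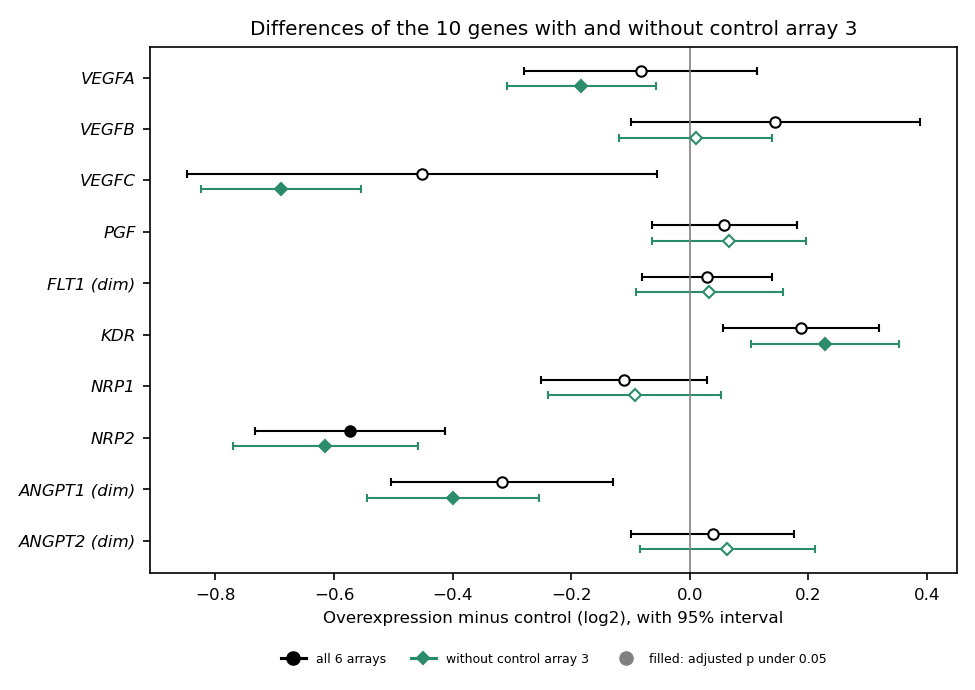
Difference between GUCY1B3 overexpression and control (x axis, log2) of the 10 genes with its 95% interval from limma, for all 6 arrays (black circles) and without control array 3 (green diamonds). Filled symbols mark an adjusted p under 0.05. NRP2 is filled in both, and VEGFA, VEGFC, KDR and ANGPT1 only without control array 3. That array was singled out from the same data, so the intervals without it are likely too narrow.

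Members of like role were also set against each other within each array, which removes any shift of the whole array. The log2 ratio of NRP2 to NRP1 was -2.58, -2.57 and -2.46 in overexpression, against -1.86, -2.18 and -2.20 in control, so the ratio was lower on all 3 overexpression arrays, by a mean difference of -0.46. For VEGFC over VEGFA the difference was -0.37 and for VEGFB over VEGFA 0.23. In these 3 pairs the groups did not overlap, which gave an exact two-sided permutation p of 0.1 each, the smallest that 3 arrays against 3 allow, and an adjusted p of 0.12 over the 6 pairs. For VEGFC over VEGFA, control array 3 at -1.87 lay next to overexpression array 2 at -1.89. Of single tested genes 29.2% had groups without overlap, and the share for ratios was not computed. The ratio of PGF to VEGFA differed by 0.14 (exact permutation p = 0.4). Without control array 3 the differences were -0.52 for NRP2 over NRP1, -0.51 for VEGFC over VEGFA, 0.19 for VEGFB over VEGFA and 0.25 for PGF over VEGFA. In the other 2 pairs of the 6, ANGPT2 over ANGPT1 and FLT1 over KDR, the groups did not overlap either (exact permutation p = 0.1 each). These pairs hold members below the array median, so no difference is given for them, but they were counted in the adjustment. None of the pairs could pass 0.05 in a design of this size. Such a ratio shows unequal change of 2 probe sets and does not compare their levels.

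The sequences before the transcription start are shown for NRP2, which fell, and for VEGFC and KDR, which passed only without control array 3. They come from RefSeq promoters on GRCh38.p14. That set held no entry for NRP1 or for VEGFA, which also passed only without control array 3, and ANGPT1 and ANGPT2 were left out. Each sequence is the 250 bases before the start, on the strand of the gene, from chr2:205682251-205682500 (plus strand) for NRP2, chr4:176792923-176793172 (minus strand) for VEGFC and chr4:55125596-55125845 (minus strand) for KDR. Capitals mark GC boxes (GGGCGG on either strand), the sites bound by SP1-type factors.
NRP2: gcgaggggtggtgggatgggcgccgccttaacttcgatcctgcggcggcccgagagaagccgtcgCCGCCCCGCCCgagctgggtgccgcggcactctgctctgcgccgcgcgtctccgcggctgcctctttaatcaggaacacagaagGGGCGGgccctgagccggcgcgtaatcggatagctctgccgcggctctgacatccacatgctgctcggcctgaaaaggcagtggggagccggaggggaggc
VEGFC: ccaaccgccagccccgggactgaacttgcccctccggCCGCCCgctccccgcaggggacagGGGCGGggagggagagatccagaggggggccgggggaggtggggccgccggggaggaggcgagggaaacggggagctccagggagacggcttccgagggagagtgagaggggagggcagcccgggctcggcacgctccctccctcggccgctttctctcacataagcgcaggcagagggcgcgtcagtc
KDR: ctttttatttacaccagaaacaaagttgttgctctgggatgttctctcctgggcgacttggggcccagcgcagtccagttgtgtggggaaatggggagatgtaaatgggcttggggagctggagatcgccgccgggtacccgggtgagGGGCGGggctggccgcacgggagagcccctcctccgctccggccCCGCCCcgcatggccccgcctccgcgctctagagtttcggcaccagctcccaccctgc
NRP2 held 3 GC boxes, of which those at -185 and -180 share 1 base, and VEGFC and KDR held 2 each. At least 1 GC box was found in 42.6% of the 35116 promoters of the table over the same length, at least 2 in 24.3% and at least 3 in 13.9%. Among members that were not called and had a window, VEGFB held 6, FLT1 held 3 and PGF held 3 or 2 by its start. The 3 windows were 70.0%, 74.0% and 65.2% G or C for NRP2, VEGFC and KDR, against a median of 58.0% over all promoters. The cAMP response element TGACGTCA (1.65% of promoters), the AP-1 site TGAGTCA (4.20%), the HIF core ACGTG (18.5%) and the TATA box TATAAA (10.7%), searched on both strands, were not found in these 3 windows. FLT1 held 1 TGACGTCA at -81 and 1 TATAAA at -31. A match describes letters in the window and shows no binding, and these arrays measured nothing at the promoters.

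The 20 nearest tested genes on the chromosome, 10 on each side, were compared with 4 members. Around NRP2 on chromosome 2 the median difference of its neighbours was -0.04, with 1 neighbour higher (PARD3B, 0.19) and 1 lower (FAM117B, which fell by 0.50), so NRP2 lay below all 20. Around VEGFC on chromosome 4 the median was 0.02 and the lowest neighbour was TENM3, which fell by 0.59. KDR lay in a stretch of chromosome 4 where the neighbours' median was -0.18, with 0 higher and 7 lower. PDGFRA, the nearest tested gene on one side and itself a receptor kinase gene, differed by -0.38 (limma, adjusted p = 0.0618), whereas KDR differed by 0.19. Around ANGPT1 on chromosome 8 the median was -0.12, with 0 neighbours higher and 5 lower, and ANGPT1 itself differed by -0.32. Copy number was not measured. The neighbours' medians of the other 6 members lay between 0.00162 and 0.08.

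**Figure D3:**
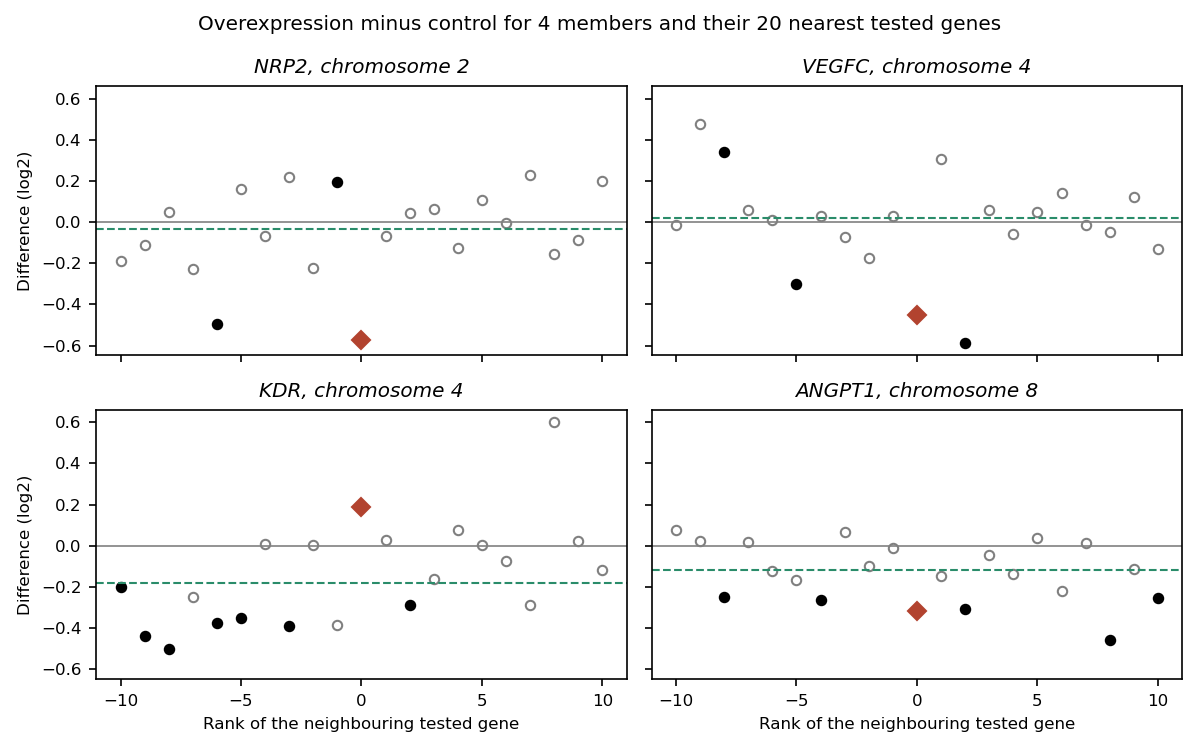
Difference between GUCY1B3 overexpression and control (y axis, log2) of NRP2, VEGFC, KDR and ANGPT1 (red diamonds) and of the 20 nearest tested genes in chromosome order (x axis, rank from the member). Filled circles have an adjusted p under 0.05 and the dashed line is the neighbours' median. KDR lies above its neighbours' median of -0.18, and NRP2 below all of its neighbours.

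The 3 genes whose profile over the 6 arrays was most like that of NRP2, of 15822 others, were ANP32A, UBE2E1 and NID1. Likeness was the root mean square difference after each gene was centred on its own mean, 0.07 for each of the 3. Differences near that of NRP2 and small p-values follow from this choice and are no further evidence. ANP32A, a nuclear protein that inhibits the phosphatase PP2A, differed by -0.65 (limma, adjusted p = 0.00110). UBE2E1, a ubiquitin-conjugating enzyme, differed by -0.46 and NID1, the basement membrane protein nidogen, by -0.54.

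The other genes of these pathways came from lists chosen, like the members, with earlier results of these data known. Among the genes named from them, the ordinary equal-variance test ended the calls of SEMA3C, CREBBP, ADM, PRKCA, HGF, PTN, CCN2, KITLG, SPRY2, ACTA2 and SLC1A3 (adjusted p between 0.0746 and 0.185). List counts stand beside the shares over all tested genes. With all arrays limma called 6.38% higher and 4.53% lower, and without control array 3 13% higher and 9.97% lower. By the unadjusted p at 0.05, 2298 of all 15823 were higher and 1659 lower. No list was tested as a whole. Among relatives of the members, the lymphatic receptor FLT4, the angiopoietin receptor TEK, its relative TIE1, the ligand ANGPT4 and the matrix protein SVEP1 were tested. Of these 5, 0 passed in limma, 0 had an unadjusted p under 0.05 and 0 passed in the ordinary test, with a median difference of -2.33e-05 against 0.02 over all genes tested. FLT4 read 6.13 ± 0.07 in overexpression and 6.12 ± 0.11 in control, and TEK 5.42 ± 0.01 in overexpression and 5.41 ± 0.04 in control (SD, n = 3 each). SVEP1, which had the smallest p, differed by -0.16 with all arrays and by -0.29 without control array 3 (limma, adjusted p = 0.406 and 0.00950). PTPRB, the phosphatase that dampens TEK signalling, was below the filter and is named here after its values were seen. It read 5.14, 5.17 and 4.94 in overexpression, against 4.48, 4.41 and 4.58 in control, a difference of 0.60 (limma without the filter, adjusted p = 0.00496).

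Of 11 tested neuropilin partners, which are semaphorins, plexins and co-receptors, 2 were higher, 1 was lower and the rest did not pass, with a median of 0.00428, and 2 were higher and 4 lower without control array 3. SEMA3C, a semaphorin that binds both neuropilins, read 7.52, 7.60 and 7.47 in overexpression and 8.12, 8.13 and 7.86 in control, and was 1.42-fold lower (limma, adjusted p = 0.00826). L1CAM, an adhesion molecule that forms a complex with NRP1, rose 1.67-fold, reading 7.00, 6.95 and 7.13 in overexpression, against 6.34, 6.28 and 6.25 in control. PLXNA2, a plexin that signals for class 3 semaphorins, rose 1.28-fold. Over the 11 partners the groups did not overlap for 4, 3 higher and 1 lower, beside the 29.2% of all tested genes.

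Genes of hypoxia sensing, which control VEGFA transcription, had a median of -0.13. Of 11 tested, 0 were higher and 1 lower in limma, with 0 higher and 4 lower by the unadjusted p and 0 called by the ordinary test. Without control array 3, 1 was higher and 5 lower. CREBBP, the coactivator of HIF, fell by 0.27 (limma, adjusted p = 0.0305). Of 21 tested hypoxia targets 0 were higher and 2 lower, with 2 higher and 6 lower by the unadjusted p, 0 higher and 1 lower by the ordinary test, and a median of -0.04. Without control array 3, 1 was higher and 7 lower. Over all tested genes limma called 6.38% higher and 4.53% lower with all arrays, with a median of 0.02. Without control array 3 the shares were 13% higher and 9.97% lower. Whether either hypoxia list differed from all genes was not tested. CA12, a carbonic anhydrase, read 6.68, 6.81 and 6.84 in overexpression, against 8.28, 8.33 and 8.11 in control, and was 2.77-fold lower. Adrenomedullin, ADM, a vasodilator peptide, fell by 0.35 (limma, adjusted p = 0.0239). The calls of CREBBP and ADM ended when any 1 array other than control array 3 was left out, with adjusted p between 0.0657 and 0.121.

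Downstream of the VEGF receptors, 3 of 20 tested signalling genes were higher and 1 was lower, with a median of 0.04, and without control array 3, 4 were higher and 4 lower. By the unadjusted p at 0.05, 3 were higher and 5 lower. PRKCA, protein kinase C alpha, read 9.14, 9.17 and 8.97 in overexpression, against 9.69, 9.98 and 9.65 in control, and was 1.60-fold lower (limma, adjusted p = 0.00503). RAC1, a GTPase of cell migration, rose 1.27-fold, RCAN1, a calcineurin inhibitor, 1.24-fold and PLCG1, the phospholipase that binds activated KDR, 1.18-fold. The call of PLCG1 ended without overexpression array 1, 2 or 3 or control array 1 (adjusted p between 0.0657 and 0.0874), and that of RCAN1 without overexpression array 1 or 2 (0.0560 and 0.0500026). PLCG1 differed by 0.24 by its brightest probe set and by 0.14 by the mean of its probe sets (adjusted p = 0.144).

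Other angiogenic factors held 4 higher and 1 lower of 17 tested, with a median of 0.02 and, without control array 3, 5 higher and 4 lower. HGF, the ligand of MET, read 7.20, 7.32 and 7.80 in overexpression and 9.26, 9.36 and 8.55 in control, 3.07-fold lower (limma, adjusted p = 0.00421). The heparin-binding factor PTN rose 1.42-fold, the matricellular CCN2 1.53-fold and the KIT ligand KITLG 1.47-fold. CCN2 was not called without overexpression array 1 or 2 or control array 1 or 2 (adjusted p between 0.0646 and 0.113), and KITLG not without overexpression array 2 or 3 or control array 1 (between 0.0500452 and 0.0743). CXCL8, named after its values were seen, had the largest difference of this list without passing. It read 5.14, 5.28 and 5.43 in overexpression, against 9.04, 7.81 and 4.79 in control, so that control array 3 lay below all overexpression arrays. Its difference was -1.93 with all arrays (limma, adjusted p = 0.218) and -3.14 without control array 3, where it passed (limma, adjusted p = 0.000102).

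Of 11 tested angiogenesis inhibitors 0 were higher and 2 lower in limma, with 1 higher and 3 lower by the unadjusted p, 0 higher and 1 lower by the ordinary test, a median of 0.04 and, without control array 3, 1 higher and 4 lower. THBS2, thrombospondin 2, read 6.12, 6.11 and 6.20 in overexpression and 6.78, 6.92 and 6.91 in control, and was 1.66-fold lower (limma, adjusted p = 0.000475). SPRY2, an intracellular inhibitor of receptor kinase signalling that the list counts among restraints, fell by 0.41 (limma, adjusted p = 0.0345), a call that ended without overexpression array 1 or 2 or control array 1 or 2 (adjusted p between 0.0890 and 0.143) and after cyclic loess (0.0624).

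Markers of vessel cells were counted in the same way. Of 9 tested endothelial markers 0 passed in limma, 0 had an unadjusted p under 0.05 and 0 passed in the ordinary test, with SOX17 the smallest p at 6.28 ± 0.07 in overexpression and 6.20 ± 0.08 in control (SD, n = 3 each). Of 7 tested pericyte markers 1, ACTA2, smooth muscle actin, rose by 0.52, a call that ended without overexpression array 1 or 2 (adjusted p = 0.0581 and 0.0584). Of 9 pericyte markers measured, 7 lay above the array median on all 6 arrays and 2, RGS5 and ABCC9, below it on all 6. The share over all genes was 15257 of 22411 above it on all 6. The mean of the pericyte list ranged between 5.87 and 5.94 in overexpression and between 5.80 and 5.92 in control. Among 11 tested glial and glioma markers 2 rose and 0 fell, with 3 higher and 1 lower by the unadjusted p and 1 higher and 1 lower by the ordinary test. The intermediate filament NES, nestin, rose by 0.53 (limma, adjusted p = 0.00125) and the glutamate transporter SLC1A3 by 0.46. The call of SLC1A3 ended without any 1 of the overexpression arrays (adjusted p between 0.0863 and 0.117), after centring each array (0.0593) and after cyclic loess (0.0634).

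**Figure D4:**
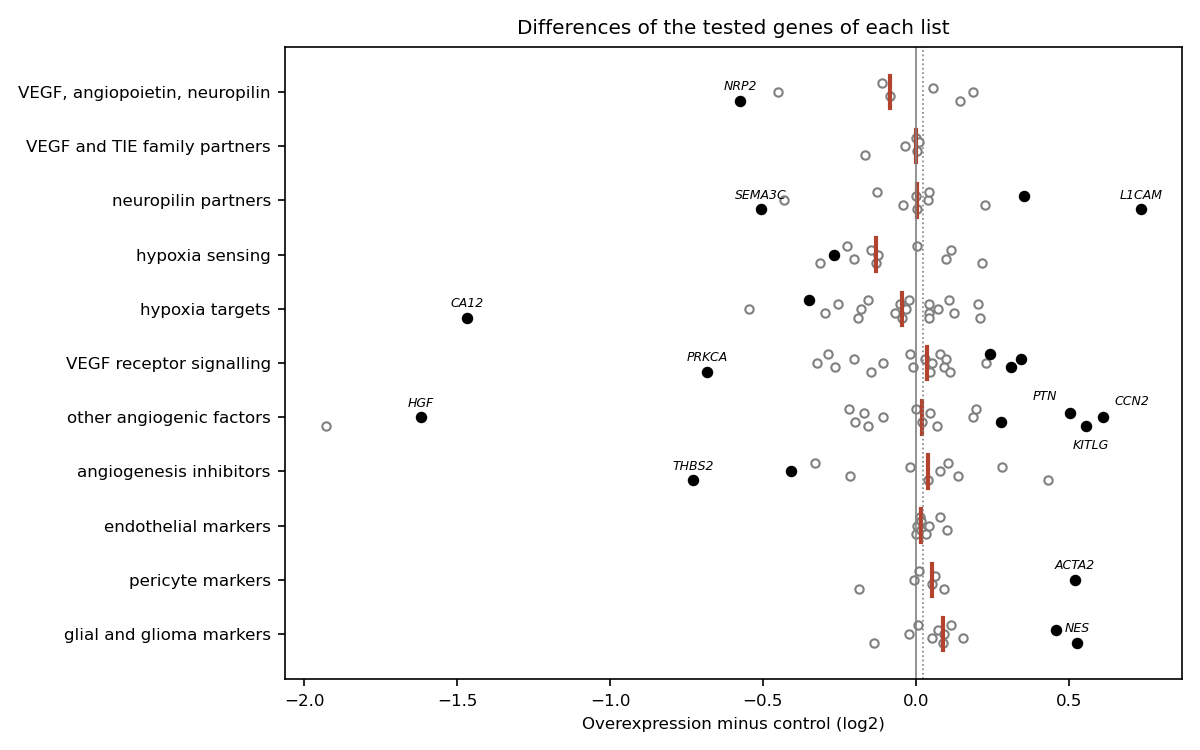
Difference between GUCY1B3 overexpression and control (x axis, log2) of the tested genes of each list (rows), with an adjusted p under 0.05 as filled circles and the list's median as a red bar. Called genes beyond 0.5 in size are named, and the dotted line is the median of all genes tested (0.02). NRP2 is the filled circle among the 7 tested VEGF, angiopoietin and neuropilin genes, and the endothelial list has no filled circle.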

How the data were processed

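The authors deposited log2 values of 6 Affymetrix arrays in 1 table, made by RMA in Affymetrix Expression Console per the submitters' processing notes. Neither the software version nor the library files or the array build are given in the sources used here. No detection calls were used, and precision is limited by the number of arrays. Platform annotation gave 1 symbol for 23781 probe sets, several for 1543 and none for 45199. Symbols were updated through RefSeq (GRCh38.p14), by Entrez identifier for 21497, symbol for 1974 and synonym for 306, and 4 were kept. The probe set with the highest mean stood for a gene. Genes above the array median on at least 3 arrays (15823) were fitted with limma 3.58.1 in R 4.3.3 (lmFit, eBayes, no covariate) and Benjamini-Hochberg adjusted, with a threshold of 0.05. Dim members were fitted over all 22411 genes. Python 3.11.15, pandas 2.3.3 and matplotlib 3.10.9 served for annotation, promoters and plots. On simulated data for this comparison and 15823 genes, the fit recovered 66 of 67 genes changed by 0.5, with 8 false among 207 calls. That recovery does not hold for every gene on the arrays themselves. There VEGFC needed a difference of 0.64 to pass, and the other 6 tested members between 0.20 and 0.40. The share of false calls on these arrays was not tested.

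The members, lists and tests were chosen with earlier results of these data known. Named genes were all 10 members, the transfected gene, up to 4 called genes of each list with the greatest difference (or the smallest p), and the 3 genes most like each called member. Alternatives covered normalization, the filter, the probe set of a gene, variance moderation, a block for the replicate number and leaving out each array; for dim members, leaving out arrays in the unfiltered fit was added after seeing the data.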

Additional observations from a re-analysis of the deposited data

How the results depend on the processing

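Each of the 10 members kept the sign of its difference under every alternative run, except ANGPT2, which reversed to -0.012 without control array 2 in the unfiltered fit. NRP2 passed in all 14 alternatives but the ordinary equal-variance test, which called 0 members lower. Leaving out 1 array gave between 0 and 1 members higher and between 1 and 3 lower, with VEGFA, VEGFC and KDR added without control array 3. In the whole table, leaving out 1 array gave between 306 and 2053 genes higher and between 215 and 1577 lower, the extremes at the top without control array 3. The ordinary test called 246 higher and 170 lower. With the replicate number as a replicate block, 589 were higher and 439 lower, and NRP2 still passed (adjusted p = 0.0251). Among the genes named from the lists, the calls of CREBBP, ADM, PLCG1, CCN2 and SPRY2 ended under that block (limma, adjusted p between 0.0556 and 0.106). The deviations of same-numbered arrays correlated at 0.28, -0.10 and -0.24, and 1 of 3 overexpression arrays correlated best with its own number. In both groups the array median was highest on array 1 and lowest on array 2 (5.03 and 4.97 in overexpression, 5.01 and 4.97 in control). With 3 arrays a group and control array 3 apart, these values cannot show whether same-numbered arrays shared a batch. The labels state no batch or pairing. A list count was taken as moved when it changed by more than 1.5 times, or when it had been 0 in the main fit and no longer was. With counts this small, such a move can be 1 gene. Counts of the lists moved in 10 of 20 cases under the ordinary test, in 10 of 20 without control array 3, in 7, 7 and 5 of 20 without overexpression array 1, 2 or 3, in 4 of 20 without control array 1, in 4 of 20 without control array 2, in 4 of 20 under the block, in 3 of 20 after cyclic loess, and in between 0 and 1 of 20 under the others. The cause of these changes was not tested. Signal over background limits FLT1, ANGPT1, ANGPT2 and KDR, which lay near or below the array medians.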
